A study of Mus musculus with 12 samples.

Results

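The 6 chemokine receptor genes Ccr1, Ccr2, Ccr3, Ccrl2, Cx3cr1 and Cxcr4 were described by their read counts in mouse bone marrow-derived macrophages. They were taken as a given list of symbols from the 55604 genes counted in each library, and all 6 passed the filter on low counts, as did 16406 genes in all. Macrophages of the C57BL/6 strain were grown from marrow cells in M-CSF, a growth factor for macrophages, at 20 ng/ml and used on day 7. The groups were macrophages given STC1OE corpses, macrophages given control corpses and macrophages alone, with 4 libraries each. Corpses were dead cells of the B16-F10 mouse melanoma line, which overexpressed STC1, a secreted glycoprotein, in the STC1OE group. They were added 5 to each macrophage, and loose corpses were washed off after 20 h, before RNA was isolated. The design text calls the 4 libraries of a condition independent experiments. How the melanoma cells were killed, whether STC1OE was 1 clone, and how many mice gave marrow are not given in the sources used here. All 3 groups share the M-CSF culture, and RNA was taken from whole wells, so RNA of corpses that stayed bound or had been engulfed can be part of the libraries.

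Chemokine receptors are G protein-coupled receptors in the cell membrane that steer leukocytes along gradients of small secreted proteins, the chemokines. Binding of a ligand activates inhibitory G proteins, PI3-kinase and Rac, which drive actin at the leading edge, and regulators of G protein signalling end the response. Monocytes leave the marrow and reach inflamed tissue through Ccr2 and patrol vessels with Cx3cr1, and Cxcr4 holds leukocytes and their precursors in the marrow. Atypical members such as Ccrl2 bind a ligand without signalling through G proteins.

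Each library held 28488441 to 39981074 reads assigned to genes. All 11 macrophage markers listed were tested, and their summed level was 15281 to 16423 CPM (counts per 1000000 assigned reads, with library sizes scaled by TMM factors) with STC1OE corpses, 15357 to 17045 with control corpses, against 17545 to 18433 in macrophages alone. Lyz2 carried most of the sum (11192 CPM in macrophages alone), and the markers moved both ways against macrophages alone, with 5 higher and 5 lower with STC1OE corpses and 4 higher and 5 lower with control corpses. Over all tested genes, 21.4% were called higher and 22.4% lower with STC1OE corpses, and 19.7% higher and 20.5% lower with control corpses. Stc1 itself had 17 reads over the 4 STC1OE libraries, 5 over those given control corpses and 5 over macrophages alone, which is too few to check the label. Melanocyte genes that were below 1 CPM in macrophages alone (12 of the 15 listed) summed to 8.28 to 10.5 CPM with STC1OE corpses, 13.4 to 17.3 with control corpses, against 2.11 to 2.71 in macrophages alone. The low sum in macrophages alone follows from that choice. With STC1OE against control corpses 1 of the 12 was higher, Ednrb, at means of 4.27 and 3.18 CPM. In that comparison 6 were lower, among them Tyrp1, at means of 1.05 and 4.09 CPM. Libraries 1 and 2, and libraries 3 and 4, stood close to each other within the STC1OE group and within macrophages alone, and libraries 3 and 4 did so with control corpses. The chi-square per degree of freedom between libraries of a group ran from 2.73 to 17.1. For the 6 receptors, values between the corpse groups are therefore given for both pairs of libraries as well.

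Of the members, 5 lie on mouse chromosome 9 and 1 on chromosome 1 (GRCm38). Ccr1 (ENSMUSG00000025804.5, chr9:123962124-123968692, minus strand), Ccr3 (ENSMUSG00000035448.9, chr9:124021972-124031689, plus strand) and Ccr2 (ENSMUSG00000049103.14, chr9:124101950-124113557, plus strand) are close neighbours within 151.4 kb. The gap between Ccr1 and Ccr3 is 53.3 kb and holds 1 other protein-coding gene, Ccr1l1. The gap between Ccr3 and Ccr2 is 70.3 kb and holds none. Ccrl2 (ENSMUSG00000043953.12, chr9:111054486-111057519, minus strand) and Cx3cr1 (ENSMUSG00000052336.7, chr9:119901616-120069879, minus strand) lie elsewhere on that chromosome, and Cxcr4 (ENSMUSG00000045382.6, chr1:128588199-128592293, minus strand) lies on chromosome 1. The protein is encoded in 1 exon in each member on chromosome 9 and in 2 exons in Cxcr4. No 50-base stretch of Ccr1, Ccr3, Ccrl2 or Cxcr4 exons occurs in another gene, while 1.91% of those of Ccr2 and 1.06% of those of Cx3cr1 do. Cx3cr1 also shares 78 exonic bases with an antisense gene. No source says whether reads were counted by strand, so how reads in these bases were assigned is not known.

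The 250 bases before the transcription start are shown for the 4 members whose window lies outside annotated exons, to set the neighbours Ccr1 and Ccr3 and the more distant Cxcr4, which all fell in both corpse groups, beside Ccrl2, which was not called. They come from RefSeq (GRCm38.p6, where all 6 members matched), read 5′ to 3′ on the gene's strand, and capitals mark matches to the motifs named after them.
Ccr1: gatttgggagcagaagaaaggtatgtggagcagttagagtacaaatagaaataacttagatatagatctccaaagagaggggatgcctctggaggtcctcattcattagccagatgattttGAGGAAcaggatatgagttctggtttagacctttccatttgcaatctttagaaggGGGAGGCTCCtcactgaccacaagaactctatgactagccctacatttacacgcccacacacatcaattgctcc
Ccr3: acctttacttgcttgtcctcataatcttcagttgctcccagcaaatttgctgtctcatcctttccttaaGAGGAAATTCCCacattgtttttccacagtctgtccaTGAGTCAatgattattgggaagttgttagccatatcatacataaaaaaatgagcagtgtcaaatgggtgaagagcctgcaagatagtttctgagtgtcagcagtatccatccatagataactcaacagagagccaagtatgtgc
Ccrl2: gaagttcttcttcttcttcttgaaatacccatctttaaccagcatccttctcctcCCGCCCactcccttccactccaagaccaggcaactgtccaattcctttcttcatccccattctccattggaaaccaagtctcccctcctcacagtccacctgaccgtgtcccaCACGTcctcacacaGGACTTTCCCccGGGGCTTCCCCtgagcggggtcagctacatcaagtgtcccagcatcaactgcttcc
Cxcr4: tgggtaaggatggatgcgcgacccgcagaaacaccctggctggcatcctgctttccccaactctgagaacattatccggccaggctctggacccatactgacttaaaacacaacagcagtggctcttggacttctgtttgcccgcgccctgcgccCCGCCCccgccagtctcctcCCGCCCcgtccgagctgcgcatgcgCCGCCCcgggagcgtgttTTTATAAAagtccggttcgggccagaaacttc

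These windows are chr9:123968693-123968942 for Ccr1, chr9:124021721-124021970 for Ccr3, chr9:111057519-111057768 for Ccrl2 (1 base of which is exonic) and chr1:128592300-128592549 for Cxcr4. Their content of G and C was 43.6%, 40.4%, 54% and 61.2% in that order. Both strands were searched for TATAAA (in 12.4% of 32851 windows of this length), GGGCGG (GC box, 32.7%), GAGGAA (core of ETS factors such as PU.1, 23.3%) and TGANTCA (AP-1, 6.75%). The search also took the NF-kB pattern GGG and CC with 5 free bases between (45.8%), ACGTG (hypoxia response, 16.6%), the interferon response pattern of GAAA repeated after 2 free bases (2.98%) and TTNNGCAA (C/EBP, 9.56%). The Ccr1 window held GAGGAA from 129 bases before the start and a match to the NF-kB pattern from 74. The Ccr3 window held GAGGAA from 181 bases before the start, overlapping a match to the NF-kB pattern from 179, and TGANTCA from 144. The Ccrl2 window held no GAGGAA but 5 matches to the NF-kB pattern over both strands, from 68, 56 and 55 bases before the start, those from 56 and 55 overlapping. It also held GGGCGG from 195 and ACGTG from 82. The Cxcr4 window held GGGCGG at 95, 75 and 50 bases and TATAAA on both strands at 32 and 30 bases. GAGGAA thus stood in the windows of both neighbours and not in those of Ccrl2, which was not called, and Cxcr4, which fell as they did. A match describes letters, not a bound site, and no match says only that the letters are absent from this window.

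Per kilobase of exon, Ccr1 and Cxcr4 were the most abundant members in every group and Cx3cr1 the least (CPM per kb, mean ± SD, n = 4). With STC1OE corpses the order was Cxcr4 at 32.96 ± 3.27, Ccr1 at 27.8 ± 0.998, Ccr3 at 6.78 ± 0.335, Ccrl2 at 3.87 ± 0.417, Ccr2 at 0.976 ± 0.129 and Cx3cr1 at 0.658 ± 0.0775. With control corpses it was the same, with Cxcr4 at 32.2 ± 3.02, Ccr1 at 31.9 ± 1.30, Ccr3 at 7.83 ± 0.425, Ccrl2 at 3.37 ± 0.225, Ccr2 at 1.18 ± 0.0541 and Cx3cr1 at 0.697 ± 0.0424. Macrophages alone had Ccr1 first at 48.9 ± 1.37, before Cxcr4 at 43.5 ± 1.62, Ccr3 at 12.9 ± 0.486, Ccrl2 at 3.66 ± 0.401, Ccr2 at 3.43 ± 0.136 and Cx3cr1 at 1.79 ± 0.0848. Cxcr4 and Ccr1 overlapped in both corpse groups but not in macrophages alone, where Ccr1 was the higher in every library. Ccrl2 and Ccr2 overlapped in macrophages alone, whereas Ccrl2 lay above Ccr2 in every library of both corpse groups. This order rests on the length of all annotated exons, and which transcripts were expressed was not tested. In CPM, Ccr1 averaged above Cxcr4 with STC1OE corpses (78.9 and 59.6), control corpses (90.4 and 58.3) and in macrophages alone (138.6 and 78.6). Ccr2 averaged above Ccrl2 in macrophages alone (23.2 and 9.50 CPM) and below it in both corpse groups.

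**Figure D1:**
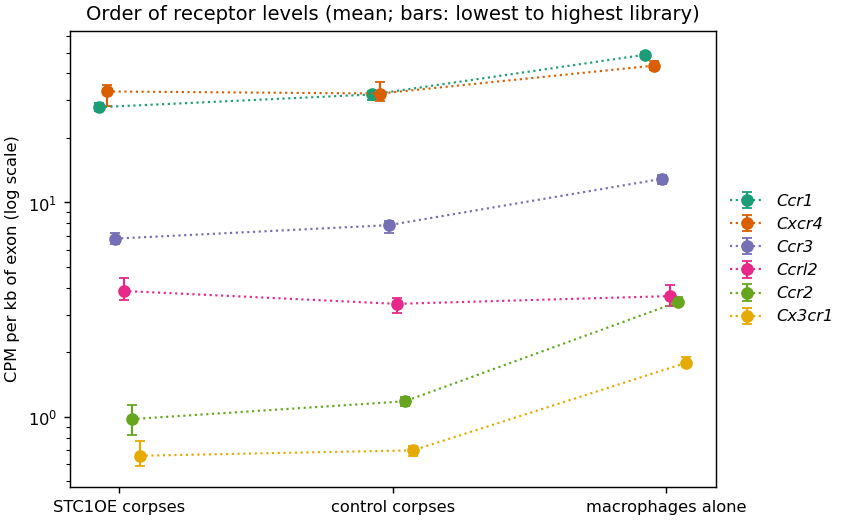
Level of the 6 receptors in CPM per kb of exon (log axis), by group. Points are means of the 4 libraries and bars run from the lowest to the highest library. Ccr2 lies beside Ccrl2 in macrophages alone (3.43 and 3.66 on average) and below it with STC1OE corpses (0.976 and 3.87).

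Both kinds of corpse were compared with macrophages alone to see which receptors differ in macrophages that had taken up or bound dead melanoma cells. With STC1OE corpses 5 of the 6 members fell and 0 rose, against 22.4% of all tested genes called lower and 21.4% called higher (43.8% in either direction). With control corpses 5 fell and 0 rose as well, against 20.5% called lower and 19.7% called higher (40.1% in either direction). These calls are from edgeR's quasi-likelihood test with Benjamini-Hochberg adjustment over 16406 genes at 0.05, 0 members were higher at an unadjusted p under 0.05 in either comparison, and DESeq2 called 5 lower and 0 higher in each. The median log2 fold change of the members was -0.87 with STC1OE corpses and -0.67 with control corpses, while the median of all genes was -0.03 with STC1OE corpses and -0.00096 with control corpses. The libraries of the groups did not overlap for 5 members in either comparison, against 40.0% of all genes with STC1OE corpses (20.2% lower) and 37.2% with control corpses (18.9% lower). Both comparisons use the same 4 libraries of macrophages alone. In RNA from whole wells, fewer cells of a type and less RNA per cell cannot be told apart.

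**Figure D2:**
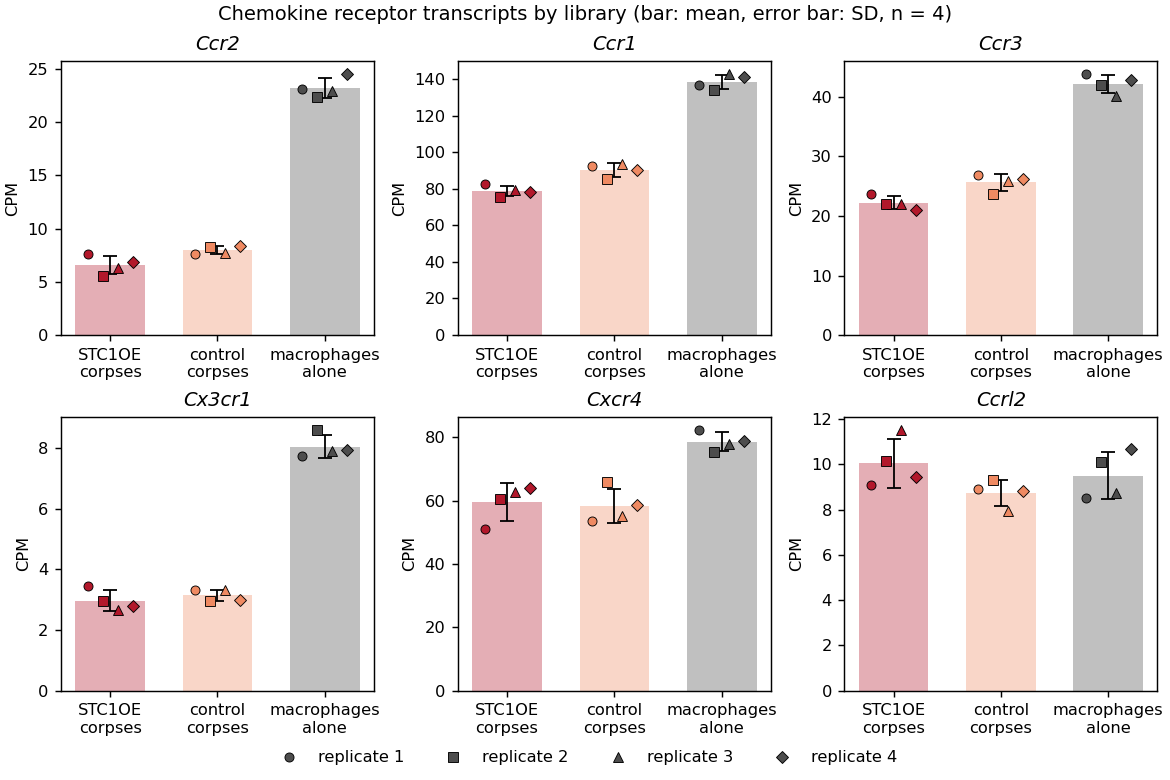
CPM of each receptor in the 12 libraries, by group, with bars for the mean, error bars for the SD (n = 4) and a marker for each replicate number. The corpse groups lie below macrophages alone for Ccr1, Ccr2, Ccr3, Cx3cr1 and Cxcr4, and the 3 groups overlap for Ccrl2.

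The comparison of STC1OE with control corpses sets macrophages given STC1-overexpressing dead tumour cells beside those given control dead tumour cells. STC1 and any other difference between these corpses or their libraries cannot be told apart in it. Here 3 members fell and 0 rose, against 2.12% of all genes called lower and 3.33% called higher (5.44% in either direction). The median of the members was -0.14 on the log2 scale, and that of all genes -0.0064. The libraries of these groups did not overlap for 1 member, Ccr1, against 10.7% of all genes (4.85% lower). At an unadjusted p under 0.05, 1 member, Ccrl2, was higher, and DESeq2 called 3 lower and 0 higher. With only replicates 1 and 2 of each group 0 members were called, of 33 genes in all. With only replicates 3 and 4, 5 were called, of 1925 genes in all: Ccr1, Ccr2 and Ccr3 lower, and Ccrl2 and Cxcr4 higher. A test against a 1.2-fold change called 0. Of the 12 melanocyte genes summed above, 1 rose and 6 fell with STC1OE corpses against control corpses, and their part in the differences between the corpse groups was not tested.

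**Figure D3:**
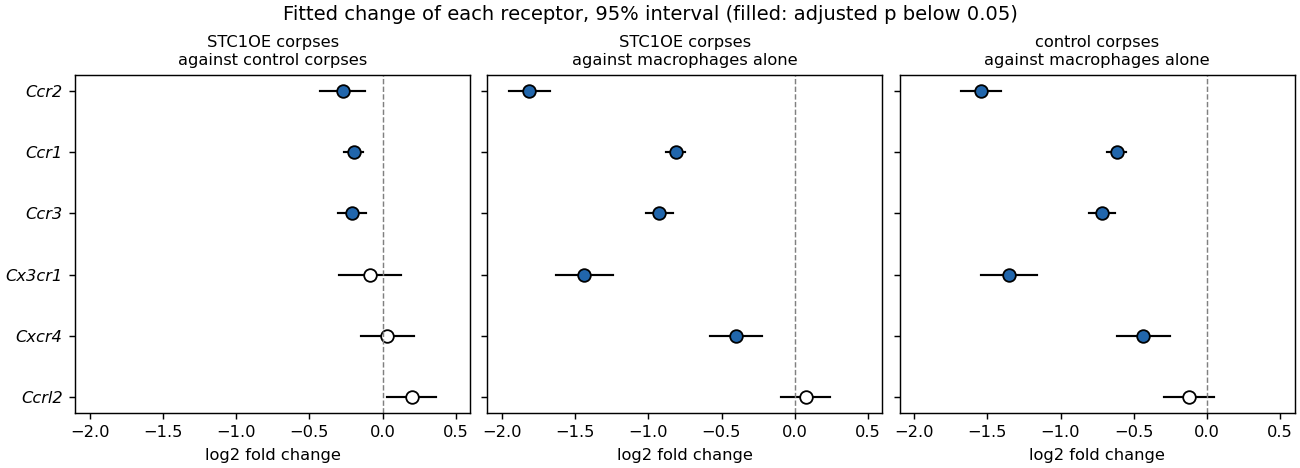
Fitted log2 fold change of each receptor with its 95% interval in the 3 comparisons; filled points have an adjusted p below 0.05. Ccr1, Ccr2 and Ccr3 lie below 0 in all 3 comparisons, at -0.20, -0.27 and -0.21 between the corpse groups.

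Ccr1 binds inflammatory CC chemokines, among them Ccl3 and, in mice, Ccl6 and Ccl9. It had 82.4, 75.6, 79.4 and 78.0 CPM in the 4 libraries with STC1OE corpses, 92.5, 85.3, 93.6 and 90.2 CPM with control corpses, and 137, 134, 143 and 141 CPM in macrophages alone. Every library with STC1OE corpses lay below every library with control corpses, and these below every library of macrophages alone. The log2 fold change was -0.81 ± 0.03 (SE) for STC1OE corpses against macrophages alone (0.569-fold, adjusted p = 2.71e-19) and -0.62 ± 0.03 for control corpses against macrophages alone (0.652-fold, adjusted p = 2.00e-16). Set against control corpses, Ccr1 fell by 0.20 ± 0.03 on the log2 scale, to 78.9 ± 2.83 CPM with STC1OE corpses, against 90.4 ± 3.69 with control corpses (SD, n = 4 each; adjusted p = 0.00031). The difference was -0.17 in replicates 1 and 2 alone (adjusted p = 0.26) and -0.22 in replicates 3 and 4 alone (adjusted p = 2.16e-06).

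Ccr2 is the receptor for Ccl2, Ccl7 and, in mice, Ccl12, and had the largest fold change of the 6 against macrophages alone. It had 7.65, 5.58, 6.33 and 6.83 CPM with STC1OE corpses, 7.61, 8.28, 7.73 and 8.32 CPM with control corpses, and 23.1, 22.3, 22.9 and 24.5 CPM in macrophages alone. All libraries with corpses were far below all libraries without, and the corpse groups overlapped through replicate 1 of the STC1OE group. On the log2 scale it fell by 1.81 ± 0.07 for STC1OE corpses (0.284-fold, adjusted p = 1.58e-19) and fell by 1.54 ± 0.07 for control corpses (0.343-fold, adjusted p = 4.22e-18), each against macrophages alone. With STC1OE corpses set against control corpses, Ccr2 fell by 0.27 ± 0.08 on the log2 scale (0.828-fold, adjusted p = 0.0294), on 842 reads in all with STC1OE corpses and 1134 with control corpses. That call was lost when replicate 2, 3 or 4 of either corpse group was left out (adjusted p = 0.0668, 0.0539 and 0.08 without control corpse replicates 2, 3 and 4, and 0.117, 0.0995 and 0.0638 without those of STC1OE corpses). It was also lost when macrophages alone were kept out of the fit (adjusted p = 0.0764) and in replicates 1 and 2 alone (-0.26, adjusted p = 0.611), and it held in replicates 3 and 4 alone (-0.28, adjusted p = 0.039).

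Most of the tested monocyte markers fell with corpses, as Ccr2 did. Of the 8 listed, 6 were tested, of which 4 fell with STC1OE corpses and 5 with control corpses. Of all genes tested, 22.4% were called lower with STC1OE corpses and 20.5% with control corpses. Ms4a4c was not called, at means of 1.82 CPM with STC1OE corpses, 2.25 with control corpses, against 2.11 in macrophages alone. The summed level of the 8 markers was 20.2 to 22.8 CPM with STC1OE corpses, 19.5 to 21.8 with control corpses, against 28.7 to 31.3 in macrophages alone, and none was at 0 throughout. Fn1 was the largest part of that sum, at means of 14.7 CPM with STC1OE corpses, 14.2 with control corpses, against 15.98 in macrophages alone. The defining gene Ly6c2 averaged 0.147 ± 0.0933 CPM with STC1OE corpses, 0.15 ± 0.0454 with control corpses, against 0.683 ± 0.0716 in macrophages alone (SD, n = 4), where Ccr2 averaged 23.2 ± 0.923. Their part in the lower Ccr2 level was not tested.

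Ccr3, the receptor for eotaxins and a marker of eosinophils, had 23.7, 22.05, 22.1 and 21.01 CPM with STC1OE corpses, 26.9, 23.6, 25.9 and 26.1 CPM with control corpses, and 43.8, 41.9, 40.1 and 42.8 CPM in macrophages alone. Both corpse groups lay wholly below macrophages alone, and between them the highest STC1OE library just met the lowest control library. Its log2 fold change was -0.93 ± 0.04 for STC1OE corpses (0.527-fold, adjusted p = 4.25e-17) and -0.72 ± 0.04 for control corpses (0.609-fold, adjusted p = 1.34e-14), each against macrophages alone. Between the corpse groups it was -0.21 ± 0.05 (0.865-fold, adjusted p = 0.00571). That call was lost without replicate 4 of the STC1OE group (adjusted p = 0.0512) and in replicates 1 and 2 alone (-0.14, adjusted p = 0.618), while replicates 3 and 4 alone gave -0.27 (adjusted p = 0.00052). Of 6 eosinophil markers, Siglecf was tested and fell with STC1OE corpses (22.4% of all genes were called lower) and with control corpses (20.5%). It averaged 2.18 ± 0.275 CPM with STC1OE corpses and 2.39 ± 0.443 with control corpses, against 3.39 ± 0.451 in macrophages alone. The others, Prg2, Epx, Il5ra, Ear1 and Ear6, were near 0: together they had 0.0591 to 0.166 CPM with STC1OE corpses, 0.0995 to 0.183 with control corpses, against 0.173 to 0.509 in macrophages alone, where Ccr3 was at 40.1 to 43.8 CPM. The part of eosinophils in the Ccr3 level was not tested.

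The neighbours kept different proportions to one another. The ratio of Ccr1 to Ccr2 CPM was 10.8 to 13.6 with STC1OE corpses, 10.3 to 12.2 with control corpses, against 5.75 to 6.23 in macrophages alone. Both corpse groups thus lay above macrophages alone in every library. Ccr1 to Ccr3 gave 3.43 to 3.71 with STC1OE corpses, 3.44 to 3.62 with control corpses, against 3.12 to 3.56 in macrophages alone, and these ranges overlapped.

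Cx3cr1, the receptor of the membrane-bound chemokine fractalkine, was the lowest member. It had 3.46, 2.95, 2.65 and 2.81 CPM with STC1OE corpses, 3.31, 2.96, 3.31 and 2.99 CPM with control corpses, and 7.74, 8.61, 7.92 and 7.94 CPM in macrophages alone. Corpse groups overlapped each other and lay below every library of macrophages alone. Its log2 fold change was -1.44 ± 0.10 for STC1OE corpses (0.369-fold, adjusted p = 8.21e-14) and -1.35 ± 0.09 for control corpses (0.391-fold, adjusted p = 2.66e-13), each against macrophages alone. Between the corpse groups it was -0.08 ± 0.10 (adjusted p = 0.719), with a 95% interval of -0.29 to 0.13, on 378 reads with STC1OE corpses and 449 with control corpses. It was 0.03 in replicates 1 and 2 alone (adjusted p = 0.985) and -0.21 in replicates 3 and 4 alone (adjusted p = 0.461). Most of the tested monocyte markers given beside Ccr2 fell as Cx3cr1 did, and their part was not tested.

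Cxcr4, the receptor of Cxcl12 and also a receptor of Mif, had 51.0, 60.6, 62.8 and 64.0 CPM with STC1OE corpses, 53.5, 65.8, 55.2 and 58.7 CPM with control corpses, and 82.4, 75.3, 78.0 and 78.9 CPM in macrophages alone. Corpse groups lay below macrophages alone in every library and overlapped each other, and their libraries were more spread (coefficient of variation 9.92% with STC1OE corpses and 9.36% with control corpses) than those of macrophages alone (3.73%). The log2 fold change was -0.40 ± 0.08 for STC1OE corpses (0.758-fold, adjusted p = 0.00218) and -0.43 ± 0.08 for control corpses (0.740-fold, adjusted p = 0.00135), each against macrophages alone. Neither passed a test against 1.2-fold (adjusted p = 0.115 with STC1OE corpses and 0.0715 with control corpses) or the test on replicates 1 and 2 alone (0.0782 with STC1OE corpses and 0.135 with control corpses). Between the corpse groups the value was 0.03 ± 0.08 (adjusted p = 0.876), with an interval of -0.15 to 0.22. It was -0.09 in replicates 1 and 2 alone (adjusted p = 0.936) and 0.16 in replicates 3 and 4 alone (adjusted p = 0.00385). B cell markers, of a lineage that also carries Cxcr4, summed to 4.35 to 4.74 CPM with STC1OE corpses, 4.60 to 5.32 with control corpses, against 14.5 to 15.8 in macrophages alone. Of the 6 listed, 3 were tested and none was at 0 throughout. Of those tested, 2 were lower with STC1OE corpses (22.4% of all genes) and 1 with control corpses (20.5% of all genes). Most of the fall in the sum was Ighm, which averaged 2.5 CPM with STC1OE corpses, 2.55 with control corpses, against 12.5 in macrophages alone. The 4 B cell markers below 1 CPM in macrophages alone summed to 0.353 CPM with STC1OE corpses, 0.376 with control corpses, against 0.419 in macrophages alone on average, and Cd79a was not called. The part of such cells in the Cxcr4 level was not tested.

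Ccrl2, an atypical receptor that presents chemerin to other cells, was the only member called in no comparison with all 12 libraries. It had 9.07, 10.1, 11.5 and 9.43 CPM with STC1OE corpses, 8.90, 9.32, 7.93 and 8.82 CPM with control corpses, and 8.53, 10.1, 8.71 and 10.7 CPM in macrophages alone. Every pair of groups overlapped. The log2 fold change against macrophages alone was 0.08 ± 0.08 with STC1OE corpses (adjusted p = 0.482, interval -0.09 to 0.24) and -0.12 ± 0.08 with control corpses (adjusted p = 0.258, interval -0.29 to 0.05). Between the corpse groups it was 0.20 ± 0.08 (adjusted p = 0.167, interval 0.03 to 0.37). It was 0.08 in replicates 1 and 2 alone (adjusted p = 0.916) and 0.32 in replicates 3 and 4 alone (adjusted p = 0.0382).

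Of 21 other chemokine receptors listed, 10 were tested, all with group means below 2 CPM apart from Cxcr3 and Cmklr1. Against macrophages alone 2 fell and 8 were not called in each corpse group, with 0 higher, and between the corpse groups 0 were called. Of all genes tested, 22.4% were called lower with STC1OE corpses and 20.5% with control corpses, so 2 of 10 is at the background. DESeq2 called 1 lower with STC1OE corpses, 2 with control corpses and 0 between them, and at an unadjusted p under 0.05 there were 3 lower, 3 lower and 0. Their median log2 fold change was -0.43 for STC1OE corpses and -0.10 for control corpses against macrophages alone, and 0.02 between the corpse groups. Cxcr2, the neutrophil receptor for Cxcl1 and related chemokines, averaged 0.218 ± 0.0693 CPM with STC1OE corpses, 0.189 ± 0.073 with control corpses, against 0.553 ± 0.189 in macrophages alone, and fell by 1.32 ± 0.35 with STC1OE corpses (adjusted p = 0.00223) and fell by 1.53 ± 0.35 with control corpses (adjusted p = 0.000573) on the log2 scale. It rests on 28, 27 and 71 reads. Neutrophil markers, of which 6 of 11 were tested and all 6 fell in each corpse group, summed to 84.9 to 91.5 CPM with STC1OE corpses, 92.0 to 97.5 with control corpses, against 179 to 187 in macrophages alone, with Ly6g at 0 throughout. Mmp8 made up most of that sum, at means of 83.8 CPM with STC1OE corpses, 90.3 with control corpses, against 167 in macrophages alone. The 6 markers below 1 CPM in macrophages alone summed to 0.415 CPM with STC1OE corpses, 0.456 with control corpses, against 1.40 in macrophages alone. Cxcr2 is itself in that list, and the part of such cells was not tested. Ccr1l1, the gene between Ccr1 and Ccr3, averaged 0.534 ± 0.0769 CPM with STC1OE corpses, 0.508 ± 0.207 with control corpses, against 0.864 ± 0.155 in macrophages alone, and fell by 0.69 ± 0.26 with STC1OE corpses (adjusted p = 0.0278) and by 0.76 ± 0.25 with control corpses (adjusted p = 0.0163). The count of 2 became 1 with STC1OE corpses without replicate 4 of macrophages alone or without replicate 1 or 2 of the STC1OE group, 3 without replicate 1 of macrophages alone, and 1 with control corpses without their replicate 2 or 3.

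Among those not called, Cmklr1, the signalling receptor for chemerin, averaged 20.8 CPM with STC1OE corpses, 20.3 with control corpses, against 21.4 in macrophages alone. Cxcr3, the receptor of interferon-induced chemokines, averaged 5.35 CPM with STC1OE corpses, 5.34 with control corpses, against 5.12 in macrophages alone. The log2 fold change of Cmklr1 against macrophages alone was -0.05 with STC1OE corpses and -0.08 with control corpses, and that of Cxcr3 was 0.06 with each. Ccr9, Ccr10, Cxcr6, Xcr1, Ackr4 and Gpr182 were low, at group means of 0.302 to 1.70 CPM, and were not called. Their log2 fold changes against macrophages alone ran from -0.52 (Ackr4) to -0.12 (Xcr1) with STC1OE corpses and from -0.57 (Gpr182) to 0.01 (Ccr9) with control corpses.

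Most of the tested ligands of the members rose with either kind of corpse. Of 16 listed, 11 were tested, and in each corpse group 6 rose, 2 fell and 3 were not called against macrophages alone. Of all genes tested, 21.4% rose and 22.4% fell with STC1OE corpses, and 19.7% rose and 20.5% fell with control corpses. The median log2 fold change of the ligands was 0.47 with STC1OE corpses and 0.37 with control corpses. With STC1OE against control corpses, 1 rose, 0 fell and 10 were not called, with a median of -0.05. Of all genes tested, 3.33% were called higher and 2.12% lower between these groups. The ligand count of 1 became 0 against a 1.2-fold change, 2 without replicate 2 of control corpses and 5 in replicates 3 and 4 alone (1925 genes in all). Ccl2, a ligand of Ccr2, had 85.8, 70.8, 80.8 and 86.1 CPM with STC1OE corpses, 99.8, 68.2, 87.7 and 80.6 CPM with control corpses, and 26.1, 28.6, 26.8 and 31.4 CPM in macrophages alone. All libraries with corpses were above all libraries without, and the corpse groups overlapped. It rose by 1.52 ± 0.13 with STC1OE corpses (adjusted p = 4.52e-06) and by 1.58 ± 0.13 with control corpses (adjusted p = 3.62e-06) on the log2 scale. Ccl7, another Ccr2 ligand, averaged 48.1 ± 5.05 CPM with STC1OE corpses, 51.4 ± 7.99 with control corpses, against 17.5 ± 1.07 in macrophages alone. It rose by 1.45 ± 0.13 with STC1OE corpses (adjusted p = 7.95e-06) and by 1.55 ± 0.13 with control corpses (adjusted p = 4.9e-06). The ratio of Ccl2 to Ccr2 CPM was 11.2 to 12.8 with STC1OE corpses, 8.24 to 13.1 with control corpses, against 1.13 to 1.28 in macrophages alone, so the groups with corpses did not overlap macrophages alone.

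Ccl4, a chemokine made by activated macrophages, averaged 24.7 ± 2.41 CPM with STC1OE corpses, 23.4 ± 2.90 with control corpses, against 15.5 ± 0.576 in macrophages alone, and rose in both (by 0.68 on the log2 scale with STC1OE corpses, adjusted p = 1.92e-05, and by 0.61 with control corpses, adjusted p = 6.25e-05). Ccl9, a mouse ligand of Ccr1, fell in both corpse groups. It averaged 312 ± 19.9 CPM with STC1OE corpses, 343 ± 34.0 with control corpses, against 481 ± 13.3 in macrophages alone, a log2 fold change of -0.62 ± 0.07 with STC1OE corpses (adjusted p = 4.8e-05) and -0.49 ± 0.07 with control corpses (adjusted p = 0.000316). Mif, a cytokine that binds Cxcr4 and Cd74, was the 1 ligand called between the corpse groups in the fit of all 12 libraries. It had 129, 123, 135 and 128 CPM with STC1OE corpses, 109, 96.0, 105 and 104 CPM with control corpses, and 74.9, 76.1, 71.9 and 81.7 CPM in macrophages alone. The 3 groups did not overlap. Mif rose by 0.76 ± 0.04 with STC1OE corpses (adjusted p = 6.41e-13) and by 0.44 ± 0.04 with control corpses (adjusted p = 7.22e-09), each set against macrophages alone. STC1OE corpses exceeded control corpses by 0.31 ± 0.04 (adjusted p = 4.36e-05). Melanocyte genes also differed between the groups, as given above, and the part of corpse RNA in the Mif level was not tested. Cx3cl1 and Cxcl12, the ligands of Cx3cr1 and Cxcr4, were low, at means of 1.69 and 0.222 CPM with STC1OE corpses, 1.86 and 0.299 with control corpses and 1.91 and 0.275 in macrophages alone, and were not called.

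**Figure D4:**
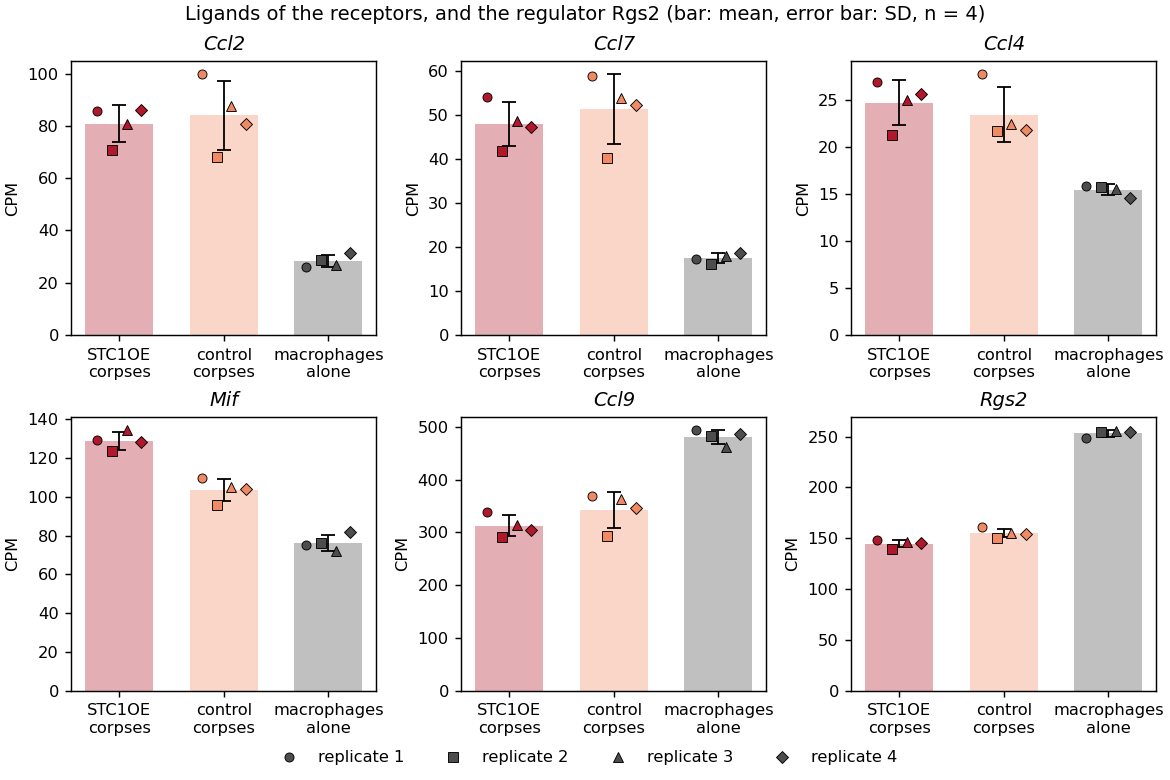
CPM of 5 ligands and of the regulator Rgs2 in the 12 libraries, by group, with bars for the mean, error bars for the SD (n = 4) and a marker for each replicate number. Ccl2, Ccl7, Ccl4 and Mif are higher and Ccl9 and Rgs2 lower with either kind of corpse than in macrophages alone.

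Genes that carry or end the receptors' signal fell more often than they rose. Of 47 listed, 46 were tested, of which 12 rose, 22 fell and 12 were not called with STC1OE corpses, and 4 rose, 24 fell and 18 were not called with control corpses, both against macrophages alone. The shares over all genes are those given for the ligands. A test against a 1.2-fold change called 12 of the 46 with STC1OE corpses and 13 with control corpses. Of all 16406 genes, that test called 2119 with STC1OE corpses and 1687 with control corpses. The median log2 fold change of these genes was -0.08 with STC1OE corpses and -0.10 with control corpses. Of the 8 listed regulators of G protein signalling, which speed the return of G proteins to the resting state, 7 fell with STC1OE corpses and 8 with control corpses. Rgs2 averaged 144.8 ± 3.64 CPM with STC1OE corpses, 155.2 ± 4.42 with control corpses, against 253 ± 3.43 in macrophages alone, a log2 fold change of -0.81 ± 0.03 with STC1OE corpses (adjusted p = 2.77e-21) and -0.71 ± 0.03 with control corpses (adjusted p = 7.29e-20) against macrophages alone. The log2 fold change of Rgs16 was -0.999 with STC1OE corpses and -0.96 with control corpses, that of Rgs18 was -0.92 with STC1OE corpses and -0.76 with control corpses, and that of Rgs10 was -0.69 with STC1OE corpses and -0.72 with control corpses, with adjusted p-values of at most 1.64e-07. Rgs1, Rgs3 and Rgs14 fell less, with log2 fold changes of -0.46, -0.39 and -0.39 with STC1OE corpses and -0.39, -0.34 and -0.46 with control corpses. Rgs19 was at -0.07 with STC1OE corpses (adjusted p = 0.118) and fell by 0.10 with control corpses (adjusted p = 0.013). Gnb4, a G protein beta subunit, fell by 0.73 ± 0.05 with STC1OE corpses and by 0.59 ± 0.05 with control corpses. With STC1OE against control corpses, 4 rose, 2 fell and 40 were not called, with a median of 0.04. Gnai2, the main inhibitory G protein alpha subunit of leukocytes, averaged 787 ± 24.3 CPM with STC1OE corpses and 730.5 ± 10.8 with control corpses (0.11 ± 0.02 on the log2 scale, adjusted p = 0.00622). Adam17, a protease that sheds cell surface proteins, averaged 250.4 ± 3.20 CPM with STC1OE corpses and 228 ± 2.10 with control corpses (0.13 ± 0.02, adjusted p = 0.000708). Pik3r5, the regulatory subunit of PI3-kinase gamma, rose by 0.12 ± 0.03 (adjusted p = 0.00603), and Nup85, a nuclear pore protein that also binds Ccr2, fell by 0.15 ± 0.04 (adjusted p = 0.0315). Without replicate 3 of the STC1OE group 3 of these 46 genes were called, and without its replicate 1 there were 8. Replicates 1 and 2 alone gave 0, replicates 3 and 4 alone gave 13 (1925 genes in all), and a test against a 1.2-fold change gave 0.

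**Figure D5:**
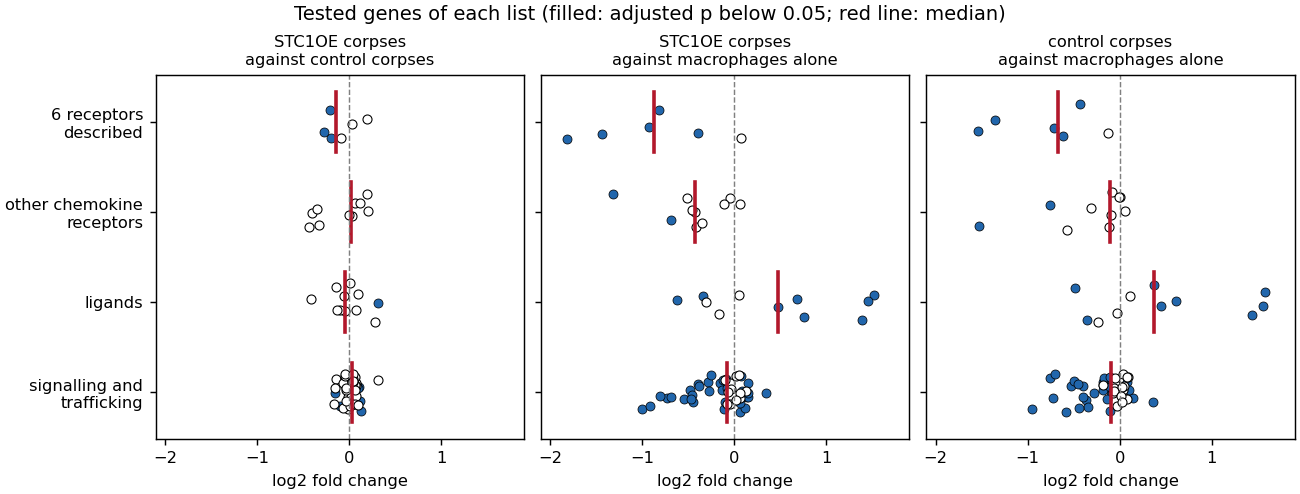
Fitted log2 fold change of every tested gene of the 4 lists (members, other chemokine receptors, ligands, signalling and trafficking genes) in the 3 comparisons, filled where the adjusted p is below 0.05. The members' medians are -0.87 and -0.67 against macrophages alone and those of the ligands 0.47 and 0.37, for STC1OE and control corpses.

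Likeness of pattern was measured as the root-mean-square difference of log2 CPM, each gene centred on its own mean over the 12 libraries, against 9932 candidate genes. The genes nearest to Ccr1 were Gnb4 (0.0514), Rgs2 (0.053) and Clec12a (0.0536), against a median of 0.363 over all candidates. For Ccr2 they were Stard4 (0.11), Gpr141 (0.118) and Fads2 (0.119), against a median of 0.813. For Ccr3 they were Rnd3 (0.0644), Fcrls (0.0727) and Rgs2 (0.0752), against 0.413. The nearest to Cx3cr1 were Acap1 (0.087), Cd14 (0.0927) and Clec4a2 (0.0973), against 0.670. Cxcr4 had Jmy (0.0474), Fcho2 (0.0548) and Ctdsp2 (0.0643), against 0.244, and Ccrl2 had Ring1 (0.0936), Ino80b (0.0951) and Tlr2 (0.0951), against 0.178. Stard4, nearest to Ccr2, averaged 11.3 ± 0.417 CPM with STC1OE corpses, 12.3 ± 0.400 with control corpses, against 37.6 ± 1.30 in macrophages alone. Acap1, nearest to Cx3cr1, averaged 3.77 ± 0.324 CPM with STC1OE corpses, 3.83 ± 0.213 with control corpses, against 10.8 ± 0.220 in macrophages alone. Ring1, nearest to Ccrl2, averaged 15.7 ± 0.950 CPM with STC1OE corpses, 14.5 ± 1.06 with control corpses, against 15.3 ± 0.765 in macrophages alone. These are descriptions over the same 12 libraries and carry no test.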

How the data were processed

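RNA was sequenced from 12 libraries of mouse macrophages as paired NovaSeq reads after TruSeq mRNA preparation, per the labels. Each library has 1 deposited file, which holds whole-number counts of reads for every gene without normalization. HISAT2, HTSeq and DESeq2 and the builds mm10 and GRCm38 are named in the submitters' processing notes; their roles, versions, the annotation release and the strand setting are not given in the sources used here. Lines that name no gene were left out: no feature held 10.6% to 14.7% of all reads, ambiguous 5.53% to 6.62%, low quality 5.17% to 5.85%, not aligned 10.8% to 17.8% and not unique 5.74% to 7.03%. In replicates 1 to 4 the share not aligned was 14.6%, 14.4%, 17.8% and 17.5% with STC1OE corpses. It was 11.3%, 11.5%, 10.8% and 11.4% with control corpses, and 13.4%, 14.0%, 11.9% and 11.4% in macrophages alone. The corpse groups thus did not overlap in this share, and its part in their differences was not tested.

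Groups and replicate numbers came from the sample titles. Identifiers matched a GRCm38 annotation for 54809 of 55604 genes. The fit of counts was made with edgeR 4.0.16 (R 4.3.3) over all 12 libraries: filterByExpr (minimum count 10, minimum total 15), TMM, robust quasi-likelihood fits with a mean per group, two-sided tests, and Benjamini-Hochberg adjustment over 16406 genes at 0.05. CPM are TMM-scaled, log2 CPM has a prior count of 2, and per-kilobase values use the union of exons. Standard errors are the fold change over the square root of F. The precision of each gene rests on counting error and on its own fitted spread between libraries. The common biological coefficient of variation was 4.53%. That the samples are independent rests on the design text; p-values measure the spread between these libraries. The fit was also run on simulated counts, drawn independently for each library from the fitted spread of each gene. Such counts lack the closeness of certain libraries within a group, so this run cannot judge calls that depend on it.

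The members and lists were chosen with earlier results of these data known. Text names all members, the tested other receptors, up to 4 called genes per further list and comparison with the largest change and a mean of at least 2 CPM, and the 3 nearest genes per member; genes of low level or uncalled beyond this, and marker examples, were chosen after their values were seen. Not every listed gene is reported here. Alternatives were DESeq2 1.42.0, RLE and upper quartile scaling, all genes with reads, a fit of the compared groups without the third, a replicate block, a test against 1.2-fold, each library left out in turn, and replicates 1 and 2 or 3 and 4 alone.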

Additional observations from a re-analysis of the deposited data

Results flagged for a closer look

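Of 90 groups of 4 libraries checked over 30 genes, 4 had a library that stood apart from the other libraries of its group by Dixon's criterion, which chance meets in about 1 of 20 groups, and 0 of the 18 groups of the members did. Ccr9 was 1.10 CPM in replicate 2 with control corpses, where the other libraries had 0.785 to 0.799. Ccl4 was 27.8 CPM in replicate 1 with control corpses, where the others had 21.8 to 22.5. Nup85 was 31.0 CPM in replicate 1 with STC1OE corpses, where the others had 28.1 to 28.5. Pik3r5 was 225.0 CPM in replicate 4 with control corpses, where the others had 217 to 219.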

How the results depend on the processing

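Each result was recomputed under 21 alternatives. Against macrophages alone, the count of called members stayed at 4 to 5 for STC1OE corpses and for control corpses, and at 5 with each library left out. The number of genes called was 2119 with STC1OE corpses and 1687 with control corpses against 1.2-fold, and 4650 and 4090 in replicates 1 and 2 alone. Between the corpse groups 4 genes were called against 1.2-fold, 33 in replicates 1 and 2 alone, 1925 in replicates 3 and 4 alone, and 474 to 1200 with 1 library left out. The members called there were 0 against 1.2-fold, 0 in replicates 1 and 2 alone, 5 in replicates 3 and 4 alone, and 1 to 3 with 1 library left out; the 1 was without replicate 4 of the STC1OE group. Fits of 2 libraries a group have fewer samples, and the cause of their difference was not tested. Cxcr4 between the corpse groups turned to -0.00596 without replicate 1 of control corpses (0.101 at most with 1 library left out) and to -0.092 in replicates 1 and 2 alone, and Cx3cr1 to 0.0301 in replicates 1 and 2 alone. Libraries with the same number did not strongly deviate together (0 of 12 pairs had a correlation over 0.1, range -0.0434 to 0.0912 over 16406 genes). A weak pairing, or one limited to few genes, cannot be seen in correlations over all genes. A replicate block gave 7300, 6712 and 1089 called genes (STC1OE and control corpses against macrophages alone, and STC1OE against control corpses) and 5, 5 and 3 called members, and changed no member's call. Cx3cr1, with 378 reads with STC1OE corpses and 449 with control corpses, had the largest standard error of the 6 in that comparison (0.10).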
